A study of Homo sapiens with 24 samples.

Results

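Palmitic acid is the main saturated fatty acid of the diet, and the second day of exposure to it was set against the first in a human liver cell line. The account covers 8 of the 24 libraries of the study, chosen by the genotype and time in their titles and by no measured value: 4 of wild-type (WT) Huh7 cells after 48 h in 800 µM palmitic acid and 4 of WT Huh7 cells after 24 h in it. Huh7 is an established hepatoma line. The other 16 libraries were ABHD6 knockout (KO) Huh7 cells at 48 h, at 24 h and at 0 h, and WT cells at 0 h, again 4 in each group, where 0 h means basal medium without palmitic acid. ABHD6 is a serine hydrolase that splits monoacylglycerols. Both groups compared had received palmitic acid, and the labels name no WT culture kept for 24 h or 48 h without it, so longer exposure and longer time in the dish cannot be told apart. Nothing in the labels tells whether separate dishes lie behind the 4 libraries of a group. The p-values therefore cover library-to-library spread, which may be technical.

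Hepatocytes take up palmitic acid, activate it to palmitoyl-CoA and send it to oxidation, to triglyceride in lipid droplets, to phospholipid and to ceramide; stearoyl-CoA desaturase makes it less saturated. A surplus of saturated chains in the membrane of the endoplasmic reticulum is known to set off the unfolded protein response and the integrated stress response. Liver cells also export lipid in lipoproteins, whose protein parts, the apolipoproteins, are made with albumin and the other plasma proteins. Hepatoma cells keep part of that secretory programme.

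Levels are FPKM, fragment counts scaled to transcript length in kilobases and to sequencing depth. The 8 libraries rested on an estimated 572656 to 756519 fragments, at which a single fragment on a transcript of 2 kb is worth 0.661 to 0.873 FPKM. A level of a few FPKM is thus a handful of fragments. Summed FPKM was 886559 ± 93113 at 48 h and 948696 ± 32920 at 24 h (SD, n = 4 each). WT 48 h replicate 3 stood apart with 748252, against 917347 to 949068 in the other 48 h libraries, and with 15334 genes above 0, the most of the 8. Annotated antisense genes held 45.9% ± 1.37 of summed FPKM at 48 h and 47.0% ± 1.56 at 24 h (SD, n = 4 each). The labels name a directional library kit, but the sources used here give no strand setting for the authors' processing. Whether the FPKM of a gene hold reads of its partner on the opposite strand was not tested. Neither value differed beyond the spread of the libraries (exact permutation test, two-sided, p = 0.257 and 0.343, adjusted over 5 library values 0.429 for both). The smallest p that 4 against 4 allows in this exact test is 0.0286. The 18 hepatocyte markers summed to 2016 to 2264 FPKM at 48 h and to 1173 to 1446 FPKM at 24 h, so the label of a liver-derived line was met. The 8 stellate or fibroblast markers summed to at most 6.75 FPKM at 48 h and 10.1 FPKM at 24 h.

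Few genes separated the second day from the first. A gene was called when limma's moderated test on log2(FPKM + 0.5), fitted over all 6 groups, gave a Benjamini-Hochberg adjusted p under 0.05. By that rule 21 of 17252 genes tested (0.122%) were called, 10 higher (0.058%) and 11 lower (0.0638%) at 48 h, and 11 of them (0.0638%) were past 2-fold. Quantile normalization turned the split to 29 higher and 14 lower. In 20 of the 21 genes the 48 h and the 24 h libraries did not overlap, where 3.77% of all genes tested showed no overlap (1.91% higher and 1.87% lower). The 21 genes were chosen by a test on these same libraries, so their separation is no independent support. The median log2 fold change of all genes was 0. An unadjusted p under 0.05 was reached by 1248 genes (7.23%), 629 higher (3.65%) and 619 lower (3.59%), and these shares are the background for the gene lists described here. The called genes included liver secretory proteins on the higher side. On the lower side were a mitotic cyclin, genes annotated as antisense and 3 mitochondrially encoded genes listed at 0. When only the 8 libraries were fitted 12 genes were called, of which 4 were among the 21 (APOA2, MT-CO3, MT-ATP6 and MT-ATP8). Without the variance trend 4 were called, all among the 21 (SCAMP3 and the same 3 mitochondrially encoded genes). The count was 6 without WT 24 h replicate 2, 7 without WT 24 h replicate 3 and 9 without WT 48 h replicate 0. Without WT 48 h replicate 3 it was 16, 11 higher and 5 lower.

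**Figure D1:**
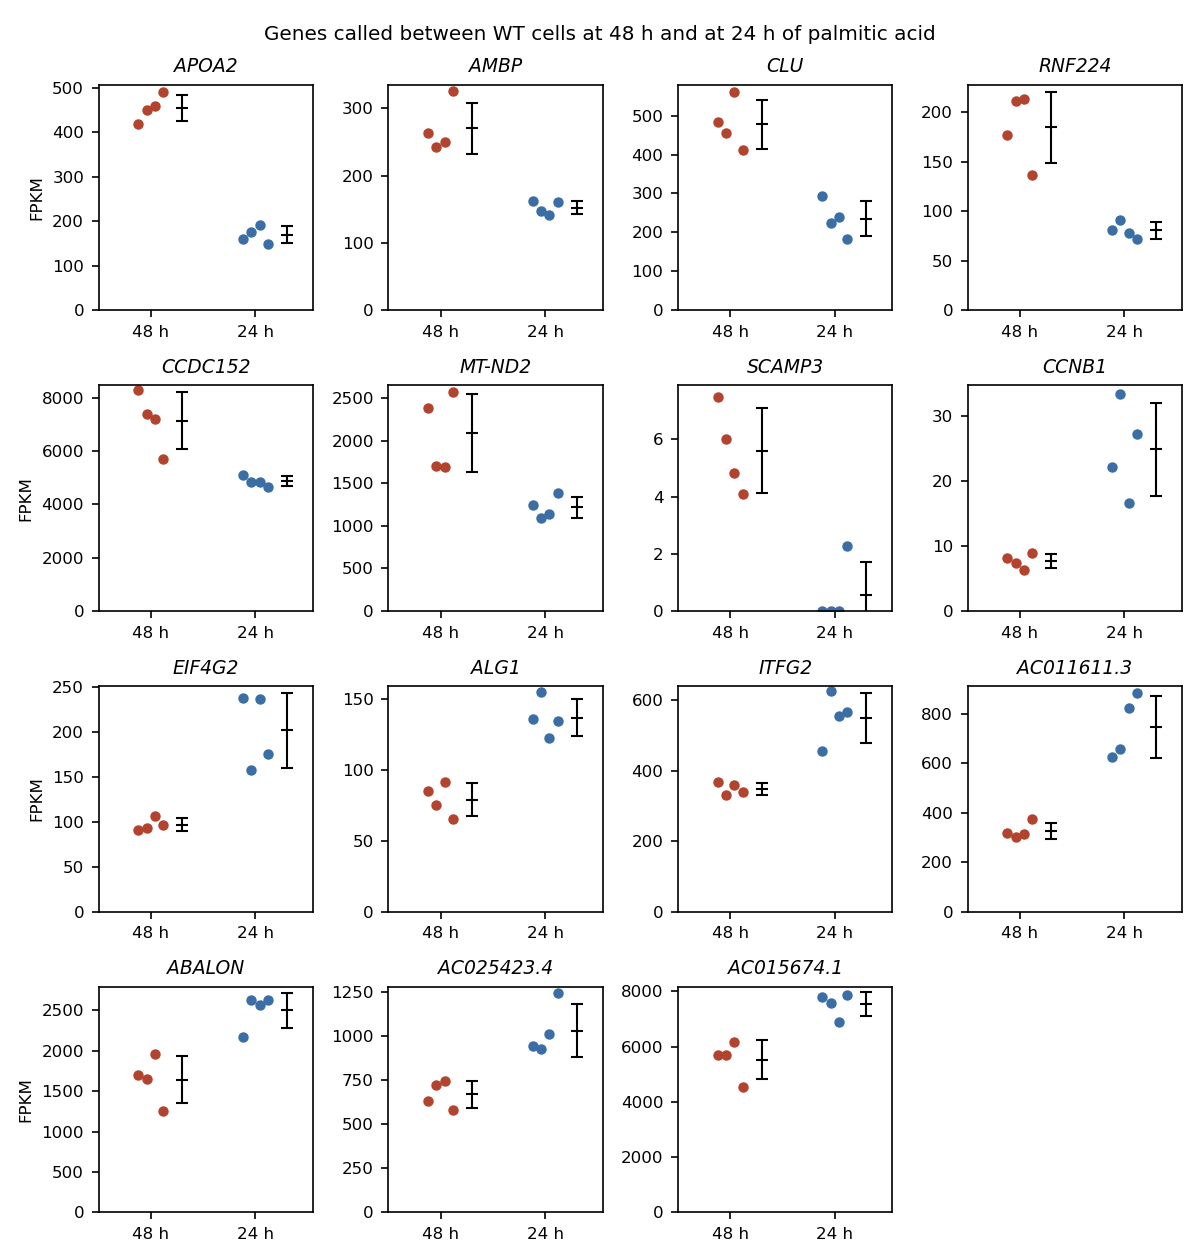
FPKM of 15 of the 21 called genes in each library, with WT cells at 48 h of palmitic acid left and at 24 h right (4 points each, replicates 0 to 3 from left to right; bars are the mean and SD; each axis starts at 0). In all 15 panels the points of the 48 h and the 24 h libraries do not overlap.

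Apolipoprotein A-II and other secreted liver proteins were higher on the second day. APOA2 (chr1:161222292-161223631, minus strand in GRCh38), the second most abundant protein of high-density lipoprotein, had 419, 452, 460.0 and 491 FPKM at 48 h and 160.2, 177, 192 and 148 FPKM at 24 h. Every 48 h library was above every 24 h library, and the ratio of the means was 2.69. APOA2 rose with a log2 fold change of 1.43 ± 0.20 (SE, limma, adjusted p = 0.00154). It kept its call in each of the 8 fits that left out a library, and lost it without the variance trend (adjusted p = 0.0535). AMBP (chr9:114060127-114078472, minus strand), which encodes the precursor of alpha-1-microglobulin and bikunin, had 263, 242, 249 and 326 FPKM at 48 h and 162, 147, 141 and 160.2 FPKM at 24 h. No AMBP library of 24 h reached those of 48 h, and WT 48 h replicate 3 was the highest. The log2 fold change of AMBP was 0.81 ± 0.15 (SE, limma, adjusted p = 0.0296). AMBP was not called when replicate 0 or 3 of WT 48 h or replicate 1, 2 or 3 of WT 24 h was left out (adjusted p = 0.0662 to 0.105). CLU (chr8:27596917-27615031, minus strand), the secreted chaperone clusterin, had 484, 455, 561 and 411 FPKM at 48 h and 293, 224, 239.9 and 183 FPKM at 24 h. No 24 h library reached a 48 h library, and CLU rose by a log2 fold change of 1.03 ± 0.19 (SE, limma, adjusted p = 0.019). CLU was not called when replicate 0 or 2 of WT 48 h or replicate 1, 2 or 3 of WT 24 h was left out (adjusted p = 0.055 to 0.11).

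APOA2, AMBP and CLU had lower levels in basal medium than at 48 h. In basal medium APOA2 had 84.5 to 148 FPKM, AMBP 106 to 149 FPKM and CLU 176 to 284 FPKM over the 4 WT libraries. For all 3 genes the 0 h and 48 h libraries did not overlap, while the 24 h libraries of AMBP and CLU overlapped those of 0 h and those of APOA2 did not. The log2 fold changes were described for 48 h over 24 h only, and no test was made against 0 h.

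**Figure D2:**
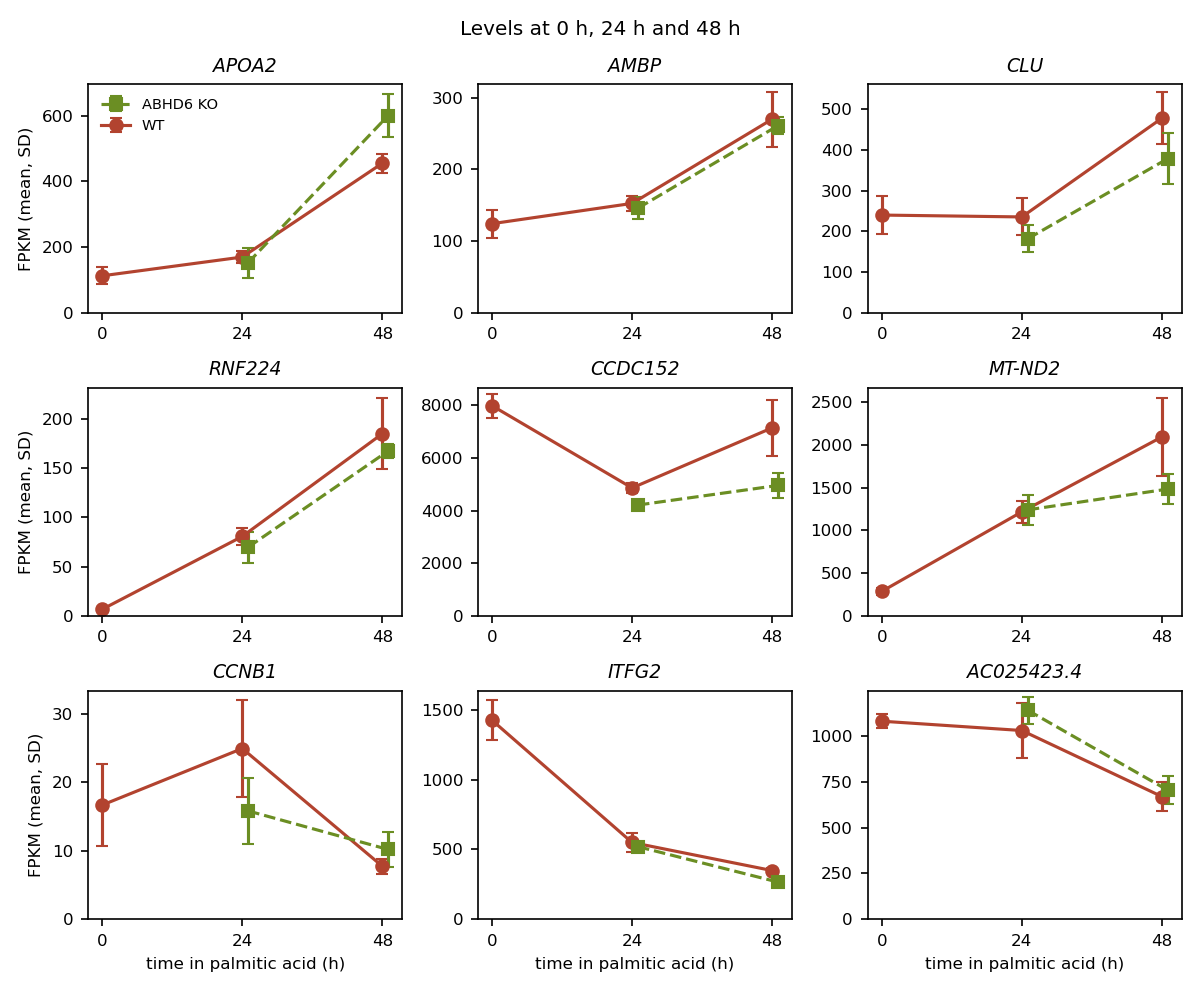
Mean FPKM and SD (n = 4 libraries) of 9 called genes against hours in palmitic acid, for ABHD6 KO cells (squares, drawn 1 h to the right, 24 h and 48 h) and WT cells (circles, 0 h, 24 h and 48 h). In WT cells RNF224 had 5.18 to 8.26 FPKM at 0 h, 72.2 to 91.7 FPKM at 24 h and 137 to 214 FPKM at 48 h, while CCNB1 was lowest at 48 h.

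The rest of the liver programme leaned the same way with few calls. Of 18 hepatocyte markers tested, all 18 had a positive log2 fold change, 2 were called (APOA2 and AMBP) and 11 had an unadjusted p under 0.05, all higher, with a median log2 fold change of 0.62 against 0 for all genes. Of 18 liver carrier proteins all 18 were positive, 1 was called and 7 had an unadjusted p under 0.05, with a median of 0.57. Of 18 genes of apolipoproteins and lipoprotein assembly 11 were positive and 7 negative. In that list 1 was called and 6 were higher at an unadjusted p under 0.05, with a median of 0.29. Of 30 genes of the acute phase, complement and coagulation 22 were positive and 8 negative. Here 0 were called, 9 were higher at that level and 0 were lower, with a median of 0.50. These 4 lists share members. Without WT 48 h replicate 3, the counts at an unadjusted p under 0.05 were 10, 5, 6 and 7 in the order given, all higher.

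Of the 18 liver carrier proteins, 4 were higher at 48 h without overlap of the groups, as were 1.91% of all genes tested. FABP1 of this list overlapped, with 387 to 554 FPKM at 48 h and 357 to 600 FPKM at 24 h (log2 fold change 0.09 ± 0.19, SE). In basal medium FABP1 had 499 to 825 FPKM. ALB, serum albumin, had 285, 319, 244 and 269 FPKM at 48 h and 209, 109.8, 194 and 139 FPKM at 24 h. ALB was separated without overlap, and its log2 fold change was 0.82 ± 0.24 (SE, limma, adjusted p = 0.286). TTR, transthyretin, the carrier of thyroxine and of the retinol-binding protein, had 86.7, 51.9, 79.6 and 91.2 FPKM at 48 h and 24.6, 36.3, 41.5 and 12 FPKM at 24 h. The lowest 48 h library was above the highest 24 h library, with a log2 fold change of 1.53 ± 0.36 (SE, adjusted p = 0.114). TF, transferrin, the iron carrier of plasma, had 204, 232, 196 and 189 FPKM at 48 h and 163, 118, 138 and 131 FPKM at 24 h, again with no overlap and with a log2 fold change of 0.58 ± 0.15 (SE, adjusted p = 0.215). AFP, the fetal albumin relative kept by many hepatomas, had 209.8, 242, 249.8 and 285 FPKM at 48 h and 255, 123, 156 and 203 FPKM at 24 h. Its groups overlapped, because WT 24 h replicate 0 lay above 3 of the 48 h libraries.

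Among apolipoproteins and their partners, APOE, which directs remnant particles to receptors, had 134, 148, 193 and 119.7 FPKM at 48 h and 96.7, 81.5, 80.6 and 59.5 FPKM at 24 h, without overlap (log2 fold change 0.89 ± 0.26, SE, adjusted p = 0.286). APOB, the scaffold of very-low-density lipoprotein, had 46.4, 40.9, 39.1 and 57.2 FPKM at 48 h and 34.2, 34.5, 28.2 and 33.1 FPKM at 24 h, also without overlap (log2 fold change 0.48 ± 0.17, SE, adjusted p = 0.472). PLTP, which moves phospholipid between particles, had 85.6 to 96.5 FPKM at 48 h and 53.2 to 74.5 FPKM at 24 h, without overlap and with an adjusted p of 0.517. Other members of the list overlapped. APOA1 had 46.1 to 74.4 FPKM at 48 h and 37.4 to 59.7 FPKM at 24 h (log2 fold change 0.33 ± 0.19, SE, limma, adjusted p = 0.755). In basal medium APOA1 had 77.4 to 92.7 FPKM. SAR1B had 49.1 to 58.5 FPKM at 48 h and 44.1 to 89.5 FPKM at 24 h (log2 fold change -0.09 ± 0.20, SE).

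Coagulation, complement and protease-inhibitor genes showed the closest approach to a call in A2M, the broad protease inhibitor alpha-2-macroglobulin. It had 78.9, 61.8, 63.2 and 75.3 FPKM at 48 h and 29.6, 47, 26.3 and 33.6 FPKM at 24 h, with no overlap and a log2 fold change of 1.05 ± 0.22 (SE, limma, adjusted p = 0.0626). FGB, the beta chain of fibrinogen, had 133 to 176 FPKM at 48 h and 94 to 103 FPKM at 24 h. The groups of FGB did not overlap, and its adjusted p was 0.286. SERPIND1, heparin cofactor II, had 13.1 to 27.3 FPKM at 48 h and 1.95 to 9.23 FPKM at 24 h (adjusted p = 0.267). ITIH2, whose product is joined to bikunin from AMBP, had 159.9 to 207 FPKM at 48 h and 121 to 129 FPKM at 24 h (adjusted p = 0.513). SERPINA1, alpha-1-antitrypsin, overlapped between the groups, with 298 to 448 FPKM at 48 h and 266 to 353 FPKM at 24 h. The transcription factors that maintain hepatocytes gave no such count: of 24 tested, 0 were called by limma and 0 had an unadjusted p under 0.05, with a median log2 fold change of 0.01 that was -0.09 after quantile normalization.

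**Figure D3:**
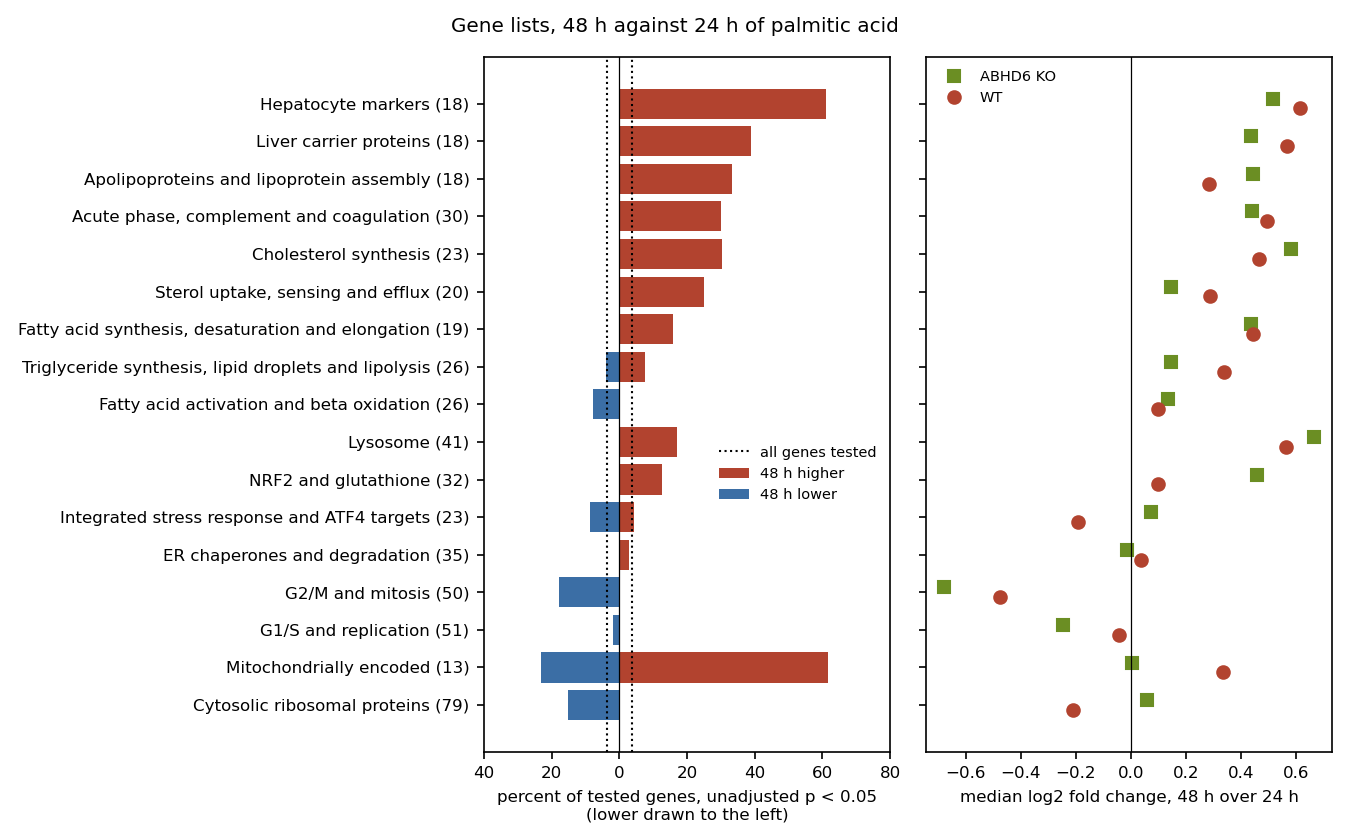
Left, percent of the tested genes of each list (number tested in parentheses) with an unadjusted p under 0.05 in WT cells, 48 h higher to the right and 48 h lower to the left, with dotted lines at the shares over all genes (3.65% and 3.59%). Right, median log2 fold change of each list at 48 h over 24 h in ABHD6 KO cells (squares) and WT cells (circles). Liver secretory and sterol lists lie to the right and mitotic genes to the left, with the mitochondrially encoded list on both sides.

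Genes of cholesterol synthesis leaned higher at 48 h. The pathway turns acetyl-CoA into sterol under the control of SREBP2, a transcription factor that the INSIG proteins hold back when sterol is plentiful. Of 23 genes tested 1 was called, 7 were higher and 0 lower at an unadjusted p under 0.05, and 18 were positive, with a median log2 fold change of 0.47. MSMO1, which removes methyl groups from lanosterol-derived sterols, had 128, 92.8, 102 and 123 FPKM at 48 h and 63.6, 50.6, 88.3 and 52 FPKM at 24 h. CYP51A1, the lanosterol demethylase, had 349.9, 318, 311 and 322 FPKM at 48 h and 299.6, 185, 206 and 198 FPKM at 24 h. Both were separated without overlap, by log2 fold changes of 0.83 ± 0.23 and 0.57 ± 0.15 (SE, adjusted p = 0.221 and 0.215). SQLE, squalene epoxidase, overlapped between the groups through WT 24 h replicate 3, with 37.5 to 60.2 FPKM at 48 h and 22 to 40.5 FPKM at 24 h. The abundant enzymes IDI1 and ACAT2 differed less. IDI1 had 186 to 209 FPKM at 48 h and 138 to 185 FPKM at 24 h, and ACAT2 had 102 to 127 FPKM at 48 h and 104 to 116 FPKM at 24 h.

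Sterol uptake and sensing genes gave 5 of 20 higher and 0 lower at an unadjusted p under 0.05 and 0 calls, with a median log2 fold change of 0.29. INSIG1 had 90.1, 68.7, 82.1 and 83.8 FPKM at 48 h and 44, 56.3, 62.9 and 52.3 FPKM at 24 h. The groups of INSIG1 did not overlap, and its log2 fold change was 0.59 ± 0.23 (SE, limma, adjusted p = 0.534). INSIG1 is a textbook target of SREBP2.

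Fatty acid synthesis and desaturation had 0 calls among 19 genes tested, with 18 positive, 3 higher at an unadjusted p under 0.05 and a median log2 fold change of 0.45. SCD, the desaturase that turns palmitic and stearic acid into monounsaturated chains, had 230.5, 237, 189 and 292 FPKM at 48 h and 169.8, 137, 126 and 141 FPKM at 24 h. Each 48 h library was above each 24 h library, and SCD missed the threshold narrowly, with a log2 fold change of 0.72 ± 0.15 (SE, limma, adjusted p = 0.0626). FADS1, the delta-5 desaturase of polyunsaturated fatty acids, had 555, 717, 489.5 and 531 FPKM at 48 h and 350.4, 426, 276 and 449 FPKM at 24 h, without overlap (adjusted p = 0.215). In basal medium FADS1 had 678 to 968 FPKM, so its 24 h libraries were the lowest of the 3 times. Genes of fatty acid activation and beta oxidation were 0 higher and 2 lower of 26 at an unadjusted p under 0.05, with a median of 0.10 and 0 calls. Over all genes tested 3.59% were lower at that level. The 2 lower ones of the list, ETFB and ETFDH, pass electrons from acyl-CoA dehydrogenases to the respiratory chain. ETFDH overlapped between the groups, with 73.2 to 116 FPKM at 48 h and 104 to 136 FPKM at 24 h. ETFA, of the same list, had 35.6 to 82.8 FPKM at 48 h and 35.1 to 73.9 FPKM at 24 h (log2 fold change 0.14 ± 0.32, SE). The log2 fold change of ETFB was 0.51 ± 0.53 (SE) in KO cells. In WT cells ETFB had 1.76, 7.06, 5.12 and 6.89 FPKM at 48 h and 43.4, 10.3, 32.9 and 17.7 FPKM at 24 h. Its log2 fold change there was -2.17 ± 0.53 (SE, limma, adjusted p = 0.148). PLIN2, the coat protein of lipid droplets, had 24.5, 10.6, 18.2 and 12.9 FPKM at 48 h and 13.9, 23.5, 11.3 and 15 FPKM at 24 h, with fully overlapping groups and a log2 fold change of 0.03 ± 0.42 (SE) whose sign turned when single libraries were left out.

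Lysosomal genes leaned higher without a call. Of 41 tested 33 were positive, 7 were higher and 0 lower at an unadjusted p under 0.05, and 0 were called by limma. Of the 7, 6 were separated without overlap, all but CTSD. Over all genes tested 1.91% were higher without overlap. The median log2 fold change of the list was 0.56. CTSL, the cysteine protease cathepsin L, had 73, 80.4, 73.7 and 63.3 FPKM at 48 h and 35.2, 30.3, 48.3 and 31.1 FPKM at 24 h (log2 fold change 1.01 ± 0.25, SE, adjusted p = 0.147). ASAH1, acid ceramidase, which splits ceramide into sphingosine and a fatty acid, had 174, 151, 148 and 134 FPKM at 48 h and 102, 62.2, 106 and 71.9 FPKM at 24 h (log2 fold change 0.85 ± 0.26, SE, adjusted p = 0.298). PSAP, the precursor of the saposins that present sphingolipids to their hydrolases, had 118 to 152 FPKM at 48 h and 69.8 to 95.9 FPKM at 24 h. HEXA, a subunit of beta-hexosaminidase, had 20.4 to 30.6 FPKM at 48 h and 7.86 to 18.4 FPKM at 24 h. The membrane protein CD63 had 69.2 to 95.1 FPKM at 48 h and 32.1 to 54.6 FPKM at 24 h. CTSD, cathepsin D, had 43.1, 80.9, 80.6 and 52.3 FPKM at 48 h and 29.8, 60.1, 22.2 and 32.1 FPKM at 24 h, where WT 24 h replicate 1 lay above a pair of 48 h libraries. CTSB, cathepsin B, had 83.7 to 98.6 FPKM at 48 h and 49.7 to 74.5 FPKM at 24 h.

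A mitotic cyclin fell, and other mitotic genes leaned the same way without a call. CCNB1 (chr5:69167010-69178245, plus strand), cyclin B1, the partner of CDK1 that drives entry into mitosis, had 8.20, 7.40, 6.35 and 8.92 FPKM at 48 h and 22.2, 33.4, 16.7 and 27.2 FPKM at 24 h. The highest 48 h library stayed under the lowest 24 h library, and CCNB1 fell to 0.310 of its 24 h mean, by a log2 fold change of -1.59 ± 0.32 (SE, limma, adjusted p = 0.0436). The call was close to the threshold, and CCNB1 was not called when replicate 0, 1, 2 or 3 of WT 48 h or replicate 0, 1, 2 or 3 of WT 24 h was left out (adjusted p = 0.0538 to 0.147). Of 50 genes of G2/M and mitosis tested 1 was called, 9 were lower and 0 higher at an unadjusted p under 0.05, and 12 were positive, with a median log2 fold change of -0.48. Of 51 genes of G1/S and replication 0 were called, 1 was lower and 0 were higher at that level, and the median was -0.04.

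Of the 50 mitotic genes tested 5 were lower and 1 was higher at 48 h without overlap. Over all genes tested the shares were 1.87% and 1.91%. The promoters of CCNB1 and CKS2 are printed because both were lower without overlap and had an unadjusted p under 0.05 (limma). TPX2 and FOXM1, which met the same rule, had no promoter entry in the sources used here. The promoter of APOA2 is printed because it had the smallest adjusted p among the genes above 0 in both groups. Each sequence is RefSeq's 250 bases before the start site and the 50 bases from it in GRCh38.p14, read on the gene's strand. Capitals mark CCAAT, the letters bound by NF-Y, and TTTGAA, a form of the cell cycle homology region, on either strand; the complement of a motif on the printed strand is its match on the other. CCNB1 is at chr5:69166900-69167199 on the plus strand, CKS2 at chr9:89310945-89311244 on the plus strand and APOA2 at chr1:161223579-161223878 on the minus strand.
CCNB1: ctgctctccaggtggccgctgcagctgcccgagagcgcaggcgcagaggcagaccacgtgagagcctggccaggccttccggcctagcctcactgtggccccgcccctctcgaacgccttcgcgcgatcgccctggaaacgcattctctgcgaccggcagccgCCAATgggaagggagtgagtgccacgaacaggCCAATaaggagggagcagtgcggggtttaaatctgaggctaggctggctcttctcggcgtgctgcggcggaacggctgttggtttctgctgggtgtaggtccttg
CKS2: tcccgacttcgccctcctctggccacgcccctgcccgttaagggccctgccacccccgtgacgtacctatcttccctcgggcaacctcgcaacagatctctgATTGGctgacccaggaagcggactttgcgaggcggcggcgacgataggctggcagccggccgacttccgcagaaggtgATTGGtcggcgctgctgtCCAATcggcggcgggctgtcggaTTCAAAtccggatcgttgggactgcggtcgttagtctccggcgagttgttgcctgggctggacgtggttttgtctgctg
APOA2: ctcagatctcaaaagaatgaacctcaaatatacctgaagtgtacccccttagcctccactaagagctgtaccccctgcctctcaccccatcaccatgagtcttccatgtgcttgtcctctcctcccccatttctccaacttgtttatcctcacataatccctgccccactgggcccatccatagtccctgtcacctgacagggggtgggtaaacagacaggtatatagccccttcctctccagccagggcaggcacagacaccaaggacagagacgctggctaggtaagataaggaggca
CCNB1 held 2 CCAAT, 87 and 55 bases before the start, and 0 TTTGAA. CKS2 held 3 CCAAT and 1 TTTGAA, with that TTTGAA on the other strand 29 bases before the start, and APOA2 held neither. CCAAT occurred in 38 of 54 promoters of the mitotic list (70.4%) and in 34.6% of all 35116 promoters of that length, and TTTGAA in 32 of the 54 (59.3%) and in 15.2% of all. In the hepatocyte markers CCAAT occurred in 8 of 16 promoters and TTTGAA in 3. In the cholesterol synthesis list, which leaned higher at 48 h, CCAAT occurred in 17 of 25 promoters (68.0%) and TTTGAA in 2. A high share of CCAAT was thus not particular to the mitotic list. A match of letters is a description of the window only.

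CKS2, a small subunit that binds CDK1, had 34.1, 30.1, 25.2 and 37.4 FPKM at 48 h and 62.2, 54.6, 54 and 81.8 FPKM at 24 h, with no overlap (log2 fold change -0.98 ± 0.32, SE, limma, adjusted p = 0.372). FOXM1, the transcription factor of the late cell cycle, had 13.7, 6.78, 10.6 and 9.65 FPKM at 48 h and 13.7, 30.1, 15.7 and 27.7 FPKM at 24 h. The WT 48 h replicate 0 of FOXM1 nearly touched the lowest 24 h library, and the adjusted p was 0.472. TPX2, which builds the spindle with Aurora A, had 8.03, 9.68, 14.7 and 14.3 FPKM at 48 h and 20, 15.5, 19.9 and 21.5 FPKM at 24 h, without overlap (log2 fold change -0.73 ± 0.28, SE, adjusted p = 0.517). UBE2S, a ubiquitin-conjugating enzyme of the anaphase-promoting complex, had 14.4 to 30.6 FPKM at 48 h and 23.9 to 69.8 FPKM at 24 h, and its groups overlapped. AURKA, TTK, CDC25C and BIRC5, all at an unadjusted p under 0.05 with overlapping groups, had 48 h means under 3 FPKM, a few fragments in each library.

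Stress genes of the endoplasmic reticulum and the integrated stress response gave 0 calls between the times. Of 35 chaperones and degradation factors 1 was higher and 0 lower at an unadjusted p under 0.05, with a median log2 fold change of 0.04. Of 23 genes of the integrated stress response 1 was higher and 2 were lower, with a median of -0.19. HSPA5, the chaperone BiP, had 106, 115, 128 and 138 FPKM at 48 h and 108, 115, 188 and 198 FPKM at 24 h. WT 24 h replicates 2 and 3 lay above all the 48 h libraries, while replicates 0 and 1 lay within their range. HSP90B1, its partner GRP94, split in the same way, with 394, 305, 320.2 and 288 FPKM at 48 h and 302, 321, 509 and 478 FPKM at 24 h. In basal medium HSPA5 had 47.6 to 69.7 FPKM, below the lowest treated library.

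DDIT3, the stress-induced transcription factor CHOP, had 34.1, 25.3, 43 and 24.5 FPKM at 48 h and 26.8, 42.5, 48.6 and 36.5 FPKM at 24 h, with overlapping groups and an adjusted p of 0.906. ATF4, the factor that the integrated stress response translates, had 89.9 to 124 FPKM at 48 h and 74.6 to 93.8 FPKM at 24 h (adjusted p = 0.836). PPP1R15A, the phosphatase subunit that ends that response, had 26.1, 15, 29.6 and 24.9 FPKM at 48 h and 24.4, 48.6, 62 and 46.8 FPKM at 24 h, at a log2 fold change of -0.88 ± 0.30 (SE, limma, adjusted p = 0.408). CANX, the lectin chaperone calnexin, was the chaperone with an unadjusted p under 0.05, with 286 to 438 FPKM at 48 h and 170.3 to 302 FPKM at 24 h. Of 24 genes of NF-kB signalling, chemokines and cytokines 0 were higher and 2 lower at that level. CXCL5, a neutrophil attractant, had 19.7, 20.8, 18.9 and 20.1 FPKM at 48 h and 37.1, 28.1, 38.4 and 39.7 FPKM at 24 h, without overlap (log2 fold change -0.82 ± 0.28, SE, adjusted p = 0.418).

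The mitochondrially encoded genes gave the most extreme values of the comparison, and those values are zeros. MT-ATP8, MT-ATP6 and MT-CO3, which encode parts of ATP synthase and of cytochrome c oxidase, had 0 FPKM in each of the 4 libraries at 48 h. At 24 h MT-ATP8 had 33519, 26806, 27894 and 42385 FPKM, MT-ATP6 had 5449, 4075, 4650 and 6224 FPKM and MT-CO3 had 4688, 4795, 4765 and 5370 FPKM. The 3 genes lie next to each other on the mitochondrial genome (chrM:8366-8572, plus strand; chrM:8527-9207, plus strand; chrM:9207-9990, plus strand), and MT-ATP8 and MT-ATP6 overlap. No fold change is given against a group listed at 0. MT-CO1, another subunit of cytochrome c oxidase used by every cell, was listed at 0 in all 8 libraries, against 348 to 464 FPKM in WT cells at 0 h. In ABHD6 KO cells at 48 h MT-ATP8, MT-ATP6 and MT-CO3 were present, with 36519 to 40147 FPKM, 5570 to 6952 FPKM and 3955 to 5169 FPKM in the order given. The limma fit called all 3 (adjusted p = 2.38e-28 for MT-CO3). Whether a zero in every library of a group is an estimate that failed was not tested.

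**Figure D4:**
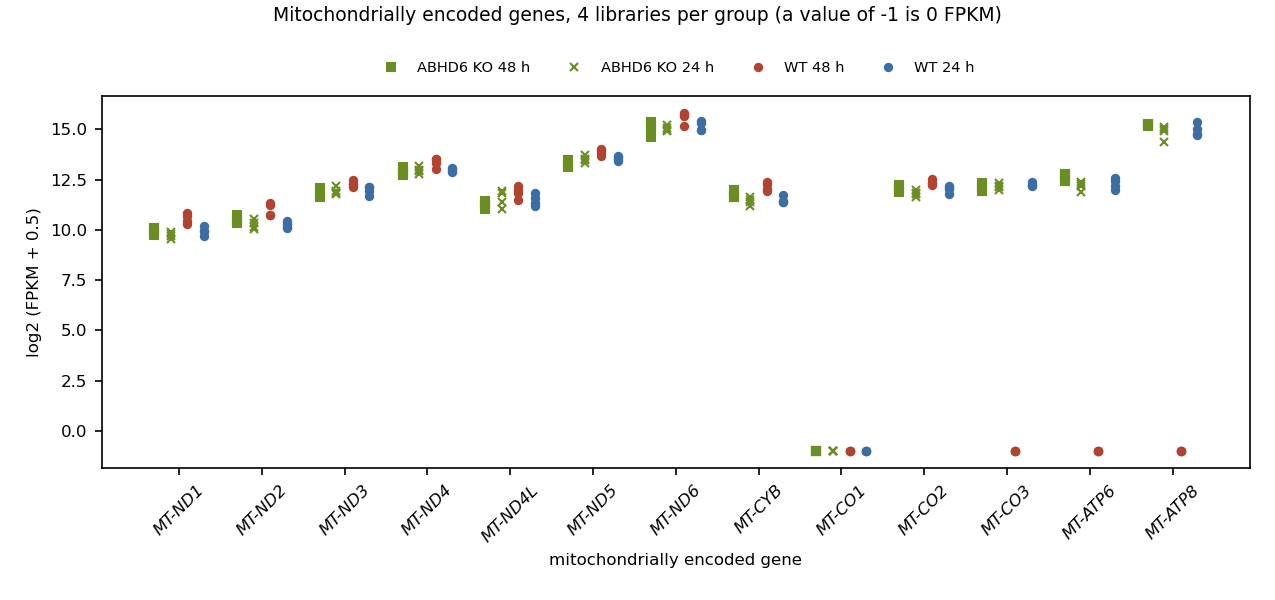
Level of the 13 mitochondrially encoded genes as log2(FPKM + 0.5) in each library, with ABHD6 KO cells at 48 h and 24 h (squares and crosses) and WT cells at 48 h and 24 h (circles), 4 libraries a group. MT-CO1 is at 0 FPKM in all 4 groups, and MT-CO3, MT-ATP6 and MT-ATP8 are at 0 FPKM in WT cells at 48 h only among these groups.

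The 9 mitochondrially encoded genes above 0 in all 8 libraries were all higher at 48 h by sign, 8 of them at an unadjusted p under 0.05, with a median log2 fold change of 0.39. MT-ND2, a subunit of respiratory complex I, had 2390, 1705, 1695 and 2581 FPKM at 48 h and 1249, 1096, 1140 and 1385 FPKM at 24 h. The groups did not overlap, and MT-ND2 rose by a log2 fold change of 0.76 ± 0.15 (SE, limma, adjusted p = 0.0436). MT-ND2 was not called when replicate 0 or 3 of WT 48 h or replicate 0, 1, 2 or 3 of WT 24 h was left out (adjusted p = 0.0762 to 0.166), nor after median-of-ratios rescaling or quantile normalization. MT-CYB, the cytochrome of complex III, had 5058, 4193, 3865 and 5421 FPKM at 48 h and 2723, 2738, 2671 and 3416 FPKM at 24 h, without overlap (log2 fold change 0.68 ± 0.15, SE, adjusted p = 0.0734). MT-ND1 had 1863, 1410, 1277 and 1632 FPKM at 48 h and 1153, 988, 836 and 997 FPKM at 24 h (log2 fold change 0.63 ± 0.15, SE, adjusted p = 0.122). Together the 9 genes summed to 105193, 98842, 98670 and 90530 FPKM at 48 h and to 70270, 75628, 78145 and 71755 FPKM at 24 h. The largest part of each sum was MT-ND6, on the minus strand, whose groups overlapped. MT-ND6 had 53364, 52818, 57903 and 36619 FPKM at 48 h and 31780, 40509, 44317 and 32675 FPKM at 24 h. The 3 genes at 0 had summed to 35677 to 53979 FPKM in the 24 h libraries. The mitochondrially encoded share of summed FPKM was 11.1% ± 0.787 at 48 h and 12.3% ± 0.913 at 24 h over all genes (SD, n = 4 each, exact permutation test, two-sided, p = 0.143, adjusted over 5 values 0.357). The sign of the difference turned when genes at 0 in any of the 8 libraries were left out, with a difference of 3.17 percentage points (exact p = 0.0286, the smallest possible). That filter removes MT-ATP8, MT-ATP6 and MT-CO3, which held FPKM at 24 h and 0 at 48 h. Its p-value therefore cannot test a change of library make-up.

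Nuclear genes of the respiratory chain did not follow: of 68 tested 2 were higher and 3 lower at an unadjusted p under 0.05 with a median log2 fold change of 0.09, and limma called 0. Cytosolic ribosomal proteins were on the lower side, with 12 of 79 lower and 0 higher at an unadjusted p under 0.05, 0 called and a median of -0.21; after quantile normalization 8 were lower and the median was -0.13. RPLP0, of the ribosomal stalk, had 41.8, 44.5, 67.9 and 49.2 FPKM at 48 h and 102, 63, 72.3 and 131 FPKM at 24 h. Its groups overlapped between WT 48 h replicate 2 and WT 24 h replicate 1 (log2 fold change -0.82 ± 0.24, SE, adjusted p = 0.286). RPL27A, of the large subunit, had 77.3, 96.2, 49.2 and 80 FPKM at 48 h and 127, 177, 209 and 124 FPKM at 24 h, without overlap (log2 fold change -1.07 ± 0.33, SE, adjusted p = 0.324). Ribosomal protein genes have many processed pseudogenes, so their values are uncertain. As a share of summed FPKM the list stood at 1.16% ± 0.116 at 48 h and 1.21% ± 0.0917 at 24 h (SD, n = 4 each, exact permutation test, two-sided, p = 0.543, adjusted over 5 values 0.543).

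EIF4G2 (chr11:10797050-10809110, minus strand), also called DAP5, a translation factor related to the cap-binding scaffold eIF4G, had 91, 93.2, 107 and 96.5 FPKM at 48 h and 238, 158, 237 and 176 FPKM at 24 h. All 48 h libraries were below all 24 h libraries, and EIF4G2 fell by a log2 fold change of -1.04 ± 0.21 (SE, limma, adjusted p = 0.0436). EIF4G2 was not called when replicate 0, 1, 2 or 3 of WT 48 h or replicate 0, 2 or 3 of WT 24 h was left out (adjusted p = 0.0659 to 0.157). Its exons share 134 bp with CTR9 on the other strand, which had 5.85 to 10.4 FPKM at 48 h and 6.09 to 26.5 FPKM at 24 h.

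4 genes annotated as antisense were lower at 48 h, and each lies across exons of a protein-coding gene on the other strand. Whether the FPKM of these 4 hold reads of that protein-coding gene was not tested. AC011611.3 (chr12:76030494-76031378, plus strand), opposite PHLDA1, had 316, 301, 314 and 373 FPKM at 48 h and 626, 655, 824 and 882 FPKM at 24 h. The highest 48 h library was under the lowest 24 h library, and AC011611.3 fell by a log2 fold change of -1.18 ± 0.18 (SE, limma, adjusted p = 0.00413). That call was kept in each of the 8 fits that left out a library, and was lost when only the 8 libraries were fitted and without the variance trend (highest adjusted p = 0.152). PHLDA1 itself had 1.56 to 3.85 FPKM at 48 h and 3.22 to 5.41 FPKM at 24 h. AC025423.4 (chr12:68841288-68843237, minus strand), opposite MDM2, had 634, 723, 744 and 579 FPKM at 48 h and 941, 927, 1010 and 1246 FPKM at 24 h, with no overlap. AC025423.4 fell by a log2 fold change of -0.62 ± 0.11 (SE, limma, adjusted p = 0.0158). It was not called when replicate 0 or 3 of WT 48 h or replicate 2 or 3 of WT 24 h was left out (adjusted p = 0.0538 to 0.0871) or after quantile normalization. MDM2, the ubiquitin ligase of p53, had 5.30 to 21.5 FPKM at 48 h and 12.9 to 20.9 FPKM at 24 h.

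ABALON (chr20:31721507-31723409, plus strand), opposite BCL2L1, had 1696, 1644, 1959 and 1255 FPKM at 48 h and 2169, 2626, 2568 and 2622 FPKM at 24 h. The groups did not overlap, WT 48 h replicate 3 was the lowest, and ABALON fell by a log2 fold change of -0.62 ± 0.12 (SE, limma, adjusted p = 0.0374). ABALON was not called when replicate 0, 1 or 3 of WT 48 h or replicate 1, 2 or 3 of WT 24 h was left out (adjusted p = 0.0781 to 0.147). BCL2L1, which guards mitochondria against apoptosis as BCL-XL, had 2.92 to 10.4 FPKM at 48 h and 6.11 to 20.3 FPKM at 24 h. AC015674.1 (chr17:47682417-47682683, minus strand), opposite the nuclear import receptor KPNB1, had 5691, 5704, 6184 and 4529 FPKM at 48 h and 7811, 7587, 6902 and 7884 FPKM at 24 h, without overlap. AC015674.1 fell by a log2 fold change of -0.46 ± 0.09 (SE, limma, adjusted p = 0.034). It was not called when replicate 0, 1 or 3 of WT 48 h or replicate 0, 1, 2 or 3 of WT 24 h was left out (adjusted p = 0.0538 to 0.147), nor in either rescaled fit. KPNB1 had 229.5 to 252 FPKM at 48 h and 221 to 311 FPKM at 24 h. Over all 2228 antisense genes tested, 104 were higher and 134 lower at an unadjusted p under 0.05 with a median log2 fold change of 0, and 0 were called higher.

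3 called protein-coding genes also lie across from other genes. Whether their FPKM hold reads of those genes was not tested. ITFG2 (chr12:2812622-2859791, plus strand), a subunit of the KICSTOR complex that curbs mTORC1, had 367, 329.7, 358 and 339 FPKM at 48 h and 455, 625, 554 and 565 FPKM at 24 h. No 48 h library reached a 24 h library, and ITFG2 fell by a log2 fold change of -0.65 ± 0.10 (SE, limma, adjusted p = 0.00421). It was called in each of the 8 fits that left out a library, but not when only the 8 libraries were fitted (adjusted p = 0.152) or without the variance trend (adjusted p = 0.478). It shares 781 bp of exon with FOXM1, whose log2 fold change was -1.02 at far lower FPKM. ITFG2 had 1307 to 1633 FPKM at 0 h. ALG1 (chr16:5033923-5087379, plus strand), which adds the first mannose to the lipid-linked sugar chain of N-glycosylation, had 84.7, 74.8, 91 and 65 FPKM at 48 h and 135, 154, 122 and 134 FPKM at 24 h, without overlap (log2 fold change -0.80 ± 0.15, SE, limma, adjusted p = 0.0296). ALG1 was not called when replicate 0, 1 or 3 of WT 48 h or replicate 1, 2 or 3 of WT 24 h was left out (adjusted p = 0.0538 to 0.0871). CCDC152 (chr5:42756801-42802360, plus strand), across from the selenium carrier SELENOP, had 8290, 7390, 7191 and 5719 FPKM at 48 h and 5119, 4843, 4825 and 4669 FPKM at 24 h. The groups did not overlap, and CCDC152 rose by a log2 fold change of 0.54 ± 0.10 (SE, limma, adjusted p = 0.019). That call was lost when replicate 0, 1 or 2 of WT 48 h or replicate 1, 2 or 3 of WT 24 h was left out (adjusted p = 0.055 to 0.0931). SELENOP had 19.6 to 53.2 FPKM at 48 h and 26.7 to 42.3 FPKM at 24 h. At 0 h CCDC152 had 7468 to 8443 FPKM, above its 24 h level. ITFG2 and ALG1 were named after their values were seen.

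RNF224 (chr9:137227271-137229638, plus strand), a RING finger protein, had 177, 211, 214 and 137 FPKM at 48 h and 80.9, 91.7, 77.6 and 72.2 FPKM at 24 h. The groups did not overlap, and RNF224 rose by a log2 fold change of 1.18 ± 0.20 (SE, limma, adjusted p = 0.0124). That call was lost when replicate 2 or 3 of WT 24 h was left out (adjusted p = 0.0538 to 0.0632). Its upstream neighbour on the same strand, CYSRT1 (chr9:137224635-137226311, plus strand), looked at for its position, had 158, 218, 286 and 171 FPKM at 48 h and 69.5, 87, 76.4 and 74.9 FPKM at 24 h. CYSRT1 did not overlap between the groups either, at a log2 fold change of 1.39 ± 0.68 (SE, adjusted p = 0.705). Both genes were low in basal medium, with 5.18 to 8.26 FPKM for RNF224 and 0 to 9.99 FPKM for CYSRT1.

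3 further calls were on the higher side. SCAMP3 (chr1:155255979-155262430, minus strand), a carrier membrane protein of endosomes, had 7.49, 6.03, 4.81 and 4.11 FPKM at 48 h, and at 24 h it was listed at 0 in replicates 0 to 2 and had 2.28 FPKM in replicate 3. In basal medium SCAMP3 had 5.13 to 17.2 FPKM. Whether its zeros at 24 h are estimates that failed was not tested. The log2 fold change was 2.96 ± 0.52 (SE, limma, adjusted p = 0.0158), and because of the zeros its size depended on the pseudocount, with 4.66 at 0.1 and 2.27 at 1. The call was lost when only the 8 libraries were fitted (adjusted p = 0.44). SCAMP3 was not called when replicate 0 of WT 48 h or replicate 1 or 2 of WT 24 h was left out (adjusted p = 0.055 to 0.0642). The gene ID ENSG00000279576.1, which the annotation used here does not describe, had 7990, 6545, 6348 and 7803 FPKM at 48 h and 3800, 4898, 3443 and 4116 FPKM at 24 h, without overlap (log2 fold change 0.82 ± 0.14, SE, adjusted p = 0.0124). It was not called when replicate 0 of WT 48 h or replicate 2 or 3 of WT 24 h was left out (adjusted p = 0.0528 to 0.0642). RN7SL277P (chr1:19424384-19424671, plus strand), a pseudogene of the signal recognition particle RNA that was named after its values were seen, was listed at 0 in every 24 h library and had 18.4, 0, 17.2 and 10.6 FPKM at 48 h, with an overlap at WT 48 h replicate 1. The limma call of RN7SL277P (adjusted p = 0.0393) was lost when replicate 0, 2 or 3 of WT 48 h or replicate 0, 1, 2 or 3 of WT 24 h was left out (adjusted p = 0.0739 to 0.119).

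Markers of bile duct or progenitor cells, which hepatoma cells can carry, gave 0 calls among 7 genes tested, with 4 higher and 1 lower at an unadjusted p under 0.05. The 8 listed genes summed to 447.8 to 809.6 FPKM at 48 h and to 300.8 to 409.9 FPKM at 24 h, without overlap. In bulk RNA more cells of a type and more RNA per cell cannot be told apart. CD24 made up most of that sum, with 729, 370.3, 604 and 385 FPKM at 48 h and 348, 260.3, 339 and 306 FPKM at 24 h (log2 fold change 0.68 ± 0.27, SE, limma, adjusted p = 0.551). SPP1, osteopontin, had 12.7 to 22.7 FPKM at 48 h and 1.38 to 8.88 FPKM at 24 h. SOX9, a duct transcription factor, was lower by sign with 10.2 to 17.4 FPKM at 48 h and 17.7 to 33 FPKM at 24 h. KRT19 had 0, 1.97, 8.54 and 2.84 FPKM at 48 h and 0 FPKM in each library at 24 h. EPCAM had 3.79 to 13.3 FPKM at 48 h and 0 to 3.97 FPKM at 24 h. Without WT 48 h replicate 3, 1 gene was higher and 1 lower. The 7 endothelial markers summed to 10.7 to 25.6 FPKM at 48 h and 0.653 to 21.0 FPKM at 24 h with 5 of them at 0 in all 8 libraries. The 8 immune markers summed to 180.5 to 326.1 FPKM at 48 h and 149.9 to 198.3 FPKM at 24 h. No marker of these lists was called. Their part in the results was not tested.

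The same step in ABHD6 KO cells, which shares no library with the WT comparison, called 89 of 17252 genes (0.516%), 19 higher (0.11%) and 70 lower (0.406%), a split that quantile normalization turned to 54 higher and 52 lower. The KO count was 47 without KO 24 h replicate 0, 52 without KO 48 h replicate 3, 56 without KO 48 h replicate 2 and 57 without KO 48 h replicate 1. An unadjusted p under 0.05 was reached by 9.3% of genes in KO cells, 3.72% higher and 5.58% lower. The 2 lists shared 8 genes, 38.1% of the WT calls and 9.0% of the KO calls, and all 8 went the same way, among them APOA2, AMBP, CLU, RNF224, AC011611.3, AC025423.4 and ITFG2. Of the 17 WT calls in genes above 0 in both WT groups, 15 had the same sign in KO cells. The share of all genes with the same sign is not given here. Both steps used the same estimate of spread for each gene, from the fit over all 6 groups. The WT and KO calls are therefore not independent. APOA2 had 521 to 662 FPKM in KO cells at 48 h and 93 to 199.7 FPKM in KO cells at 24 h, at a log2 fold change of 2.03 ± 0.20 (SE, limma, adjusted p = 7.12e-06). AMBP changed by 0.84 ± 0.15, CLU by 1.06 ± 0.19 and RNF224 by 1.29 ± 0.20 on the log2 scale in KO cells (SE, adjusted p = 0.00848, 0.00648 and 0.00267). The log2 fold change of ITFG2 in KO cells was -0.97 ± 0.10 (SE, adjusted p = 1.01e-05).

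**Figure D5:**
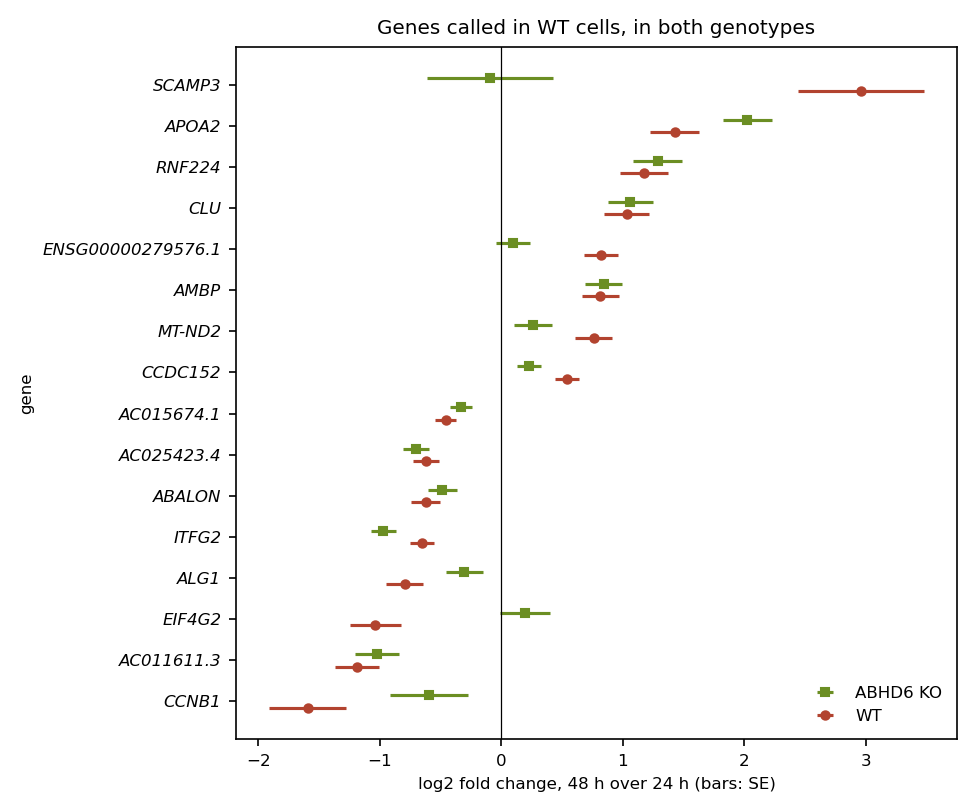
Log2 fold change at 48 h over 24 h (with SE) of 16 genes called in WT cells that were above 0 FPKM in some library of both WT groups, in ABHD6 KO cells (squares) and WT cells (circles). SCAMP3 and EIF4G2 lie on opposite sides of 0 in the 2 genotypes, and the other 14 lie on the same side.

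List medians in KO cells had the sign of the WT ones for the liver, sterol, lysosomal and mitotic lists, and no test of the difference between list medians was made. The KO median log2 fold change was 0.52 for hepatocyte markers (9 of 18 higher at an unadjusted p under 0.05), 0.58 for cholesterol synthesis (9 of 23 higher), 0.67 for lysosomal genes (11 of 41 higher and 1 lower) and -0.68 for mitotic genes (8 of 50 lower). For apolipoproteins and lipoprotein assembly it was 0.44, against 0.29 in WT cells, and for sterol uptake and sensing 0.15, against 0.29 in WT cells. Genes that missed the threshold in WT cells were called in KO cells for TF (log2 fold change 0.69 ± 0.15, SE, limma, adjusted p = 0.0427), SCD (0.74 ± 0.15, adjusted p = 0.0208), MSMO1 (1.13 ± 0.23, adjusted p = 0.0206), CTSL (1.14 ± 0.25, adjusted p = 0.033) and CTSD (1.59 ± 0.36, adjusted p = 0.047). Ribosomal proteins had a KO median of 0.06, with 14 of 79 higher and 3 lower at an unadjusted p under 0.05, and the 9 mitochondrially encoded genes above 0 had a KO median of 0.01.

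The difference between the KO and the WT step was tested gene by gene in the same fit. It was called for 3 of 17252 genes (0.0174%), MT-CO3, MT-ATP6 and MT-ATP8, the genes listed at 0 in WT cells at 48 h, and for 0 when genes at 0 in a whole group were left out, where limma gave 770 genes at an unadjusted p under 0.05. Over all genes tested that share was 4.94%, with 2.19% positive and 2.75% negative differences. For APOA2 the KO minus WT difference in log2 fold change was 0.60 ± 0.28 (SE, adjusted p = 0.968), and for CCNB1 it was 1.00 ± 0.45 (SE, adjusted p = 0.968). It was for EIF4G2 1.23 ± 0.29 (SE, adjusted p = 0.571) and for SCAMP3 -3.05 ± 0.74 (SE, adjusted p = 0.571). AC009630.2, ID2 and RHBDF1 did not pass either. ID2, an inhibitor of basic helix-loop-helix factors, had 0 FPKM in the 4 KO libraries at 48 h and 1.56 to 6.30 FPKM in KO cells at 24 h, against 6.02 to 10.6 FPKM in WT cells at 48 h and 1.60 to 12.6 FPKM in WT cells at 24 h (adjusted p of the difference 0.338). AC009630.2, opposite GINS4, had 191 to 262 FPKM in KO cells at 48 h and 454 to 516 FPKM in KO cells at 24 h, against 362 to 440.4 FPKM in WT cells at 48 h and 465 to 568 FPKM in WT cells at 24 h (adjusted p of the difference 0.0634). RHBDF1, an inactive rhomboid protease, had 0 FPKM in KO cells at 48 h and 0.873 to 13.3 FPKM in KO cells at 24 h, against 4.63 to 28.2 FPKM in WT cells at 48 h and 0 to 3.55 FPKM in WT cells at 24 h (adjusted p of the difference 0.571).

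ABHD6 itself did not serve as a check of the genotype labels. It had 0.718, 0.693, 0.771 and 0 FPKM in KO cells at 48 h and 0, 0, 0 and 0.759 FPKM in KO cells at 24 h, against 0.846, 0, 0 and 0 FPKM in WT cells at 48 h and 0.785, 0, 0 and 0 FPKM in WT cells at 24 h. Each non-zero value is of the order of a single fragment, and the gene lay under the floor for testing.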

How the data were processed

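The deposited table holds FPKM values of 58024 Ensembl gene IDs in 24 libraries, made by the authors; per the submitters' processing notes the tools were STAR, Cufflinks and Cuffdiff and the build GRCh38, with versions, roles and strand setting not given in the sources used here. Per the labels' protocols, RNA was taken with the RNeasy Plus kit and made into libraries with the TruSeq directional mRNA kit for a NovaSeq 6000; the treatment text there speaks of day 1 for the treated plates, and the times used are those of the titles and the design text. GENCODE release 29 matched 57375 of the 57979 IDs used (98.96%); 45 chromosome Y copies of shared genes, all at 0, were left out. Fragments per library were estimated from the most frequent low value of FPKM times length on single-transcript genes.

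Values were tested as log2(FPKM + 0.5) with limma 3.58.1 (R 4.3.3) in the 17252 genes that averaged 0.5 FPKM or more across the 24 libraries; 40727 were below. The fit had 6 group means, a variance trend and 18 residual degrees of freedom, with Benjamini-Hochberg adjustment over all genes tested. A fold change on this scale understates that of low genes. Single library values had an exact permutation test (scipy 1.17.1). Named genes were the called genes with a log2 fold change of at least 1 in size and 5 FPKM, called list members, abundant list members and antisense genes, with list members at an unadjusted p under 0.05 added after their values were seen. Results of some genes are not reported here. The members and lists were chosen with earlier results of these data known. On simulated data for this comparison with 16802 genes, 4-fold changes were recovered in 35 of 35 genes from 20 FPKM and in 34 of 65 from 2 to 20 FPKM. For 2-fold changes the counts were 12 of 26 and 4 of 74, and 1 of 86 calls was of an unchanged gene. The simulation gave every gene the same dispersion of 0.05, so these rates do not carry over to genes of wider spread.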

Additional observations from a re-analysis of the deposited data

Results flagged for a closer look

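Single libraries far from the other 3 of their group were found in 9 of 182 groups of 4 tested with Dixon's criterion, which chance gives in about 1 of 20 groups. At 48 h the far libraries were the highest of FGB (176 FPKM), SERPIND1 (27.3 FPKM) and RHBDF1 (28.2 FPKM), and the lowest summed FPKM (748252). At 24 h they were the highest of MT-CO3 (5370 FPKM), MT-CYB (3416 FPKM) and SCAMP3 (2.28 FPKM) and the lowest of ABALON (2169 FPKM) and CDC25C (2.31 FPKM).

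The limma test of the KO minus WT difference in the 48 h against 24 h step called MT-CO3 (adjusted p = 6.07e-25), MT-ATP8 (adjusted p = 5.80e-21) and MT-ATP6 (adjusted p = 1.02e-19). They are the 3 genes listed at 0 in WT cells at 48 h. With genes at 0 in a whole group left out, 0 genes were called. Whether the zeros are estimates that failed was not tested, so these p-values do not establish a genotype difference.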

How the results depend on the processing

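The WT count of 21 was 43 after quantile normalization (18 of them among the 21), 12 with only the groups compared (4 among the 21), 4 without the variance trend, 11 among genes with no opposite-strand overlap and 1248 at an unadjusted p under 0.05, a rule added after seeing the data; leaving out single libraries gave 6 to 26. The replicate numbers did not pair the libraries (correlations of same-numbered 48 h and 24 h libraries about their group means of -0.0327 to 0.028), and the replicate block gave 36 calls. The KO count of 89 was 10 without the variance trend, 159 with array weights, 7 among genes with no opposite-strand overlap and 47 to 74 without single libraries. The 3 genes whose step differed between KO and WT cells were 5 with a pseudocount of 0.1, 0 without genes at 0 in a whole group and 3 to 5 without single libraries. The cause of these changes was not tested, except that genes at 0 and overlapping genes were removed by construction. Over genes above 0 in all 8 libraries the mitochondrially encoded share changed sign to 3.17 percentage points higher at 48 h. The antisense share was 3.16 lower, a difference of -3.16 (exact permutation test, p = 0.0286 for each share). That filter removes MT-ATP8, MT-ATP6 and MT-CO3, which held FPKM at 24 h and 0 at 48 h. The p-values of both shares therefore cannot test a change of library make-up. Genes of at least 1 FPKM were 335.8 more at 48 h (exact permutation test, p = 0.0286). The log2 fold change of PLIN2 ranged from -0.18 to 0.23 without single libraries, with -0.02, -0.11 and -0.04 among them. At this depth, levels of a few FPKM rest on single fragments.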
